A study of Homo sapiens with 6 samples.

Results

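The 41 genes described here encode collagen chains, matrix glycoproteins, the enzymes and chaperone that build collagen, and the proteases and inhibitors that turn the matrix over. They were taken from a list of gene names, matched to the Ensembl identifiers of 58219 genes in the count tables, and all 41 were found. The libraries come from U2OS cells, an established human osteosarcoma line, in 2 groups of 3. Control cells expressed a scramble hairpin (shRNA), and the others expressed an shRNA directed at E4F1, a zinc finger transcription factor with ubiquitin ligase activity. Cells of both groups grew in DMEM with 10% serum, were infected for 24 h, selected with puromycin for 48 h and harvested at 72 h, so infection and selection are shared by the controls. Per the labels the cells formed 3 independent pools, and polyadenylated RNA was sequenced. The labels name a single shRNA against E4F1, and leave unsaid whether equally numbered pools of the groups were handled in parallel.

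Collagens are built in the endoplasmic reticulum, where prolyl and lysyl hydroxylases modify the chains and a dedicated chaperone, the product of SERPINH1, escorts the triple helix. Outside the cell lysyl oxidases crosslink the fibrils, glycoproteins such as fibronectin link them to cell surface receptors, and metalloproteinases held in check by tissue inhibitors degrade them. Osteoblasts secrete the bulk of bone matrix as type I collagen, and osteosarcoma cells carry part of that programme.

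Reads of E4F1 itself were 233, 286 and 297 in controls and 51, 53 and 41 after E4F1 shRNA, 5.92-fold lower in CPM (log2 fold change −2.57, adjusted p = 7.66e-10 in edgeR). Reads in genes numbered 14947085 to 16892139 per library. Of 12 genes chosen to mark the line, the osteoblast regulator RUNX2 averaged 30.9 CPM (reads scaled to a common library size) in control and 26.8 CPM in E4F1 shRNA libraries, and the bone matrix gene SPP1 64.5 and 47.8 CPM. ALPL, the bone alkaline phosphatase gene, averaged 7.18 and 7.30 CPM, SP7, BGLAP and IBSP at most 0.11 CPM, and TWIST1 had no read. The 12 genes summed to 2543 to 2787 CPM in controls and to a lower 2126 to 2355 CPM after E4F1 shRNA, without overlap, VIM being the highest, and 2 of 8 tested fell. Markers of blood cells (8 genes) summed to 2.34 to 6.98 CPM and those of endothelial cells (8 genes) to 9.94 to 12.3 CPM over all libraries. No blood or endothelial marker tested passed. Epithelial markers (8 genes) summed to 24.8 to 28.4 CPM in controls, and 21.4 to 25.4 CPM after E4F1 shRNA, and of 4 tested 1 rose and 2 fell. Markers of stromal fibroblasts and mural cells (8 genes) summed to 349 to 381 CPM in controls, and 271 to 284 CPM after E4F1 shRNA, and 4 of 6 tested fell. The highest of them, MCAM, averaged 266 CPM in control and 208 CPM in E4F1 shRNA libraries. Over all genes tested 14.4% rose and 14.4% fell. DCN averaged 0.19 CPM in control and 0.22 CPM in E4F1 shRNA libraries, and DPT was at or near 0. The part of these marker differences in the matrix results was not tested. A cell cycle score, the mean log2 CPM of 36 replication and mitosis genes relative to the 6 libraries, was −0.184, 0.0396 and −0.303 in control libraries 1 to 3 and 0.188, 0.19 and 0.0687 in E4F1 shRNA libraries 1 to 3, so control library 2 lay nearest the E4F1 shRNA group.

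The 41 genes held 1.04% to 1.07% of the reads in genes in controls, and 1.01% to 1.06% after E4F1 shRNA, so the share overlapped between groups. Of the 41, 39 passed the filter on low counts and were tested. POSTN, which encodes the bone and ligament glycoprotein periostin, had 4 to 9 reads per library, and BGN, which encodes the proteoglycan biglycan, had 2 to 7, and both were left out. Of the 39 tested, 3 rose and 9 fell at an adjusted p under 0.05. Over all 15765 genes tested 28.9% passed, 14.4% up and 14.4% down, and the members' share was 30.8%, close to that background. Among the 6505 genes with an average log2 CPM of at least 5 the share that passed was 40.1%, with 21.7% up and 18.4% down, against 12 of 34 members (35.3%) at that level. These are bulk libraries, in which fewer cells of a type and less RNA per cell cannot be told apart. The members that passed changed by at most 1.54-fold, and no member tested changed 2-fold. The median log2 fold change was −0.09 for the members and −0.01 for all genes. By position of the single libraries, E4F1 shRNA values lay wholly above control for 6 members and wholly below for 11, against 20.7% and 21.1% of all genes (41.8% in either direction).

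**Figure D1:**
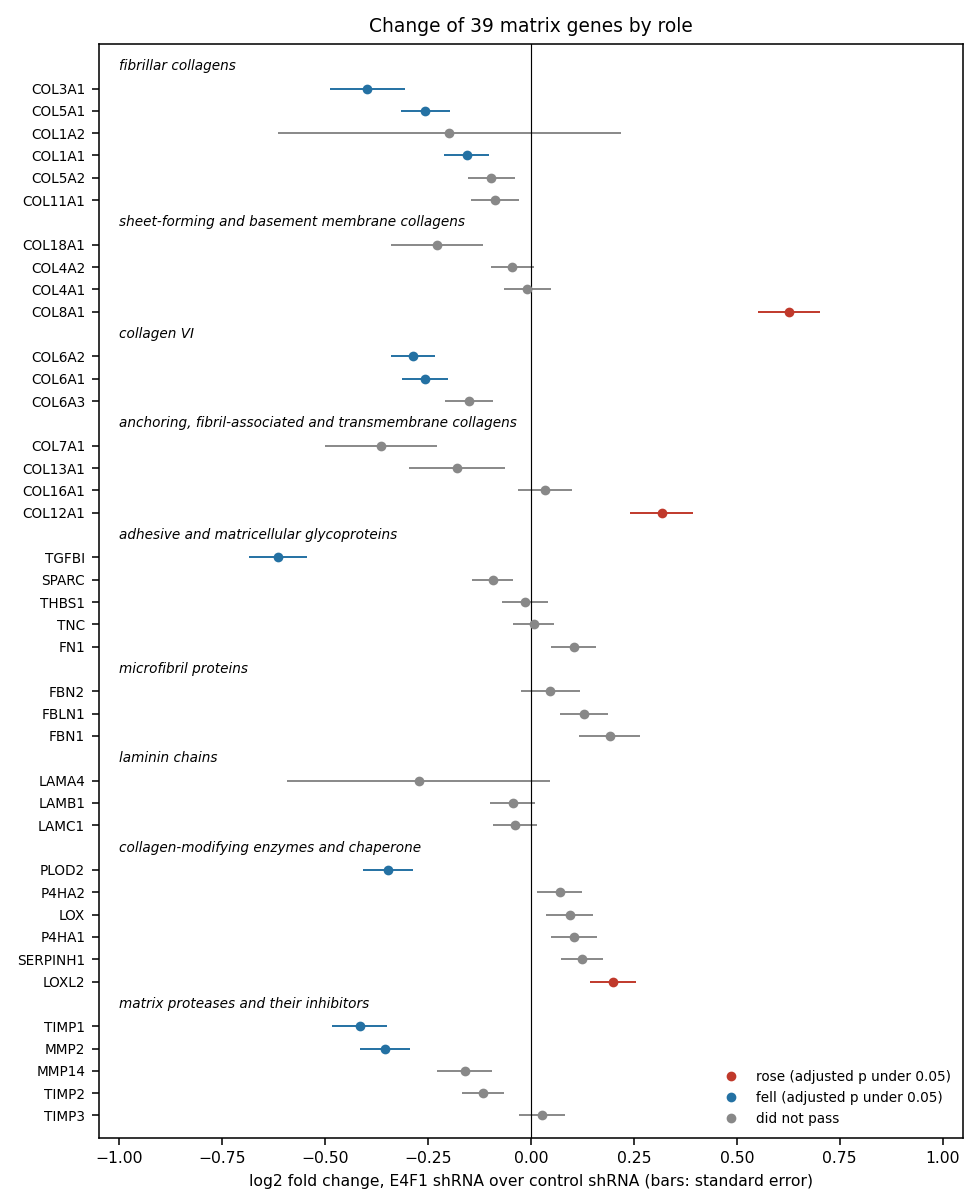
Log2 fold change of E4F1 shRNA over control shRNA for the 39 matrix genes tested, grouped by role, with the standard error as bars (n = 3 libraries per group). COL8A1 (0.63) and TGFBI (−0.61) lie farthest out, and all 6 fibrillar collagens lie left of 0, 3 of them past the test.

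Levels of different genes were compared as CPM per kilobase of annotated exon (RPKM), since read counts grow with transcript length. SPARC, which encodes the collagen-binding glycoprotein osteonectin of bone, stood highest in control cells at 262 ± 4.0 RPKM (SD, n = 3), followed by TIMP1 (201 ± 22.7 RPKM) and COL1A1 (123 ± 6.55 RPKM). The same 3 genes led in E4F1 shRNA cells, at 246, 150 and 110 RPKM. THBS1, SERPINH1, FN1 and LAMC1 followed between 51.9 and 68.5 RPKM in control. With the longest transcript as length the first 3 genes kept their places, but COL4A2 moved from rank 11 to rank 4, THBS1 from 4 to 8 and LAMC1 from 7 to 11. The median over the 41 genes was 20.8 RPKM. At the low end COL7A1 stood at 1.0 RPKM, and BGN, LAMA4, POSTN and COL1A2 all lay at or under 0.129 RPKM.

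**Figure D2:**
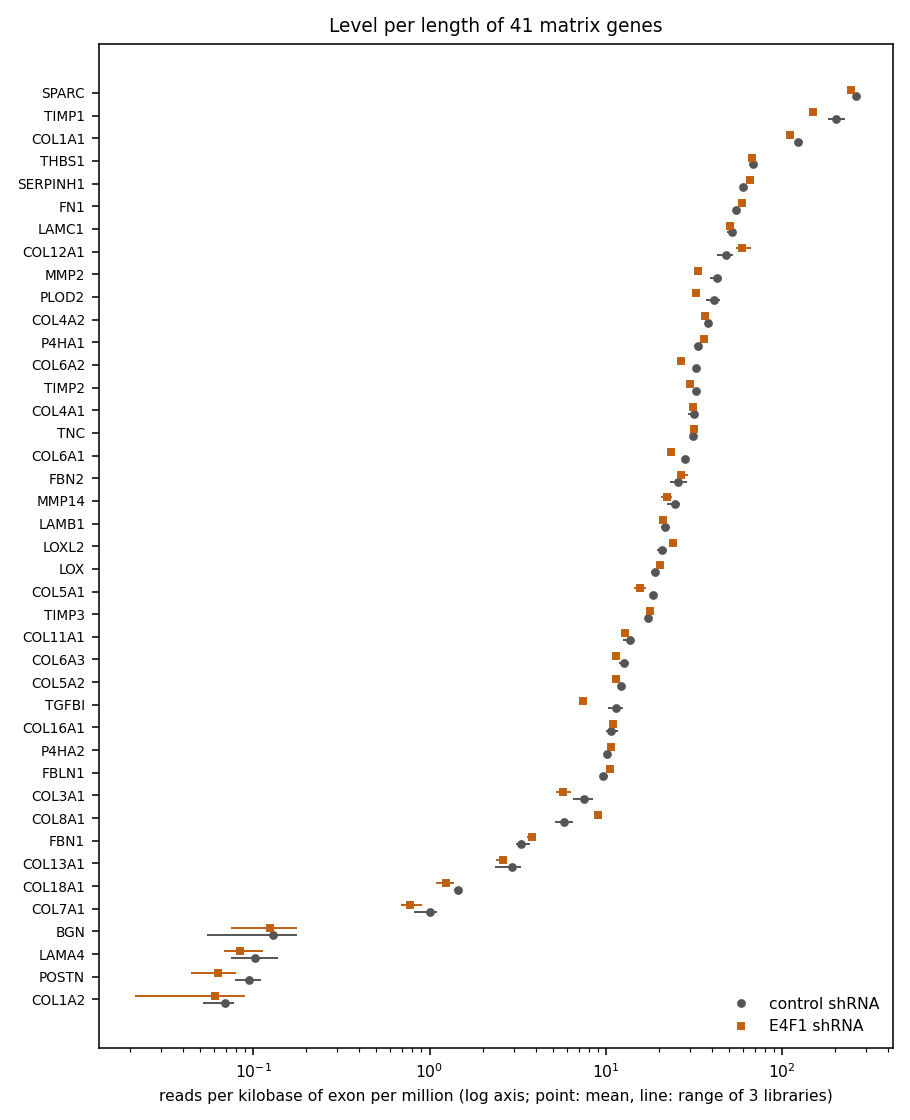
Level per length of all 41 matrix genes on a log axis, as the mean (point) and range (line) of 3 libraries per group, ordered by the control mean. SPARC, TIMP1 and COL1A1 lie above 100 in both groups, and BGN, LAMA4, POSTN and COL1A2 lie apart at the low end, all at or under 0.129.

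The partners of type I collagen differed most in level. COL1A1 (chromosome 17, 50183289 to 50201632, GRCh38, minus strand) and COL1A2 (chromosome 7, 94394561 to 94431232, plus strand) encode the chains that form the usual heterotrimer of type I collagen. COL1A1 stood at 123 RPKM in control cells and COL1A2 at 0.0692 RPKM. COL1A2 had 0.87, 0.866 and 0.579 CPM in the control libraries and 0.998, 0.238 and 0.793 CPM in the E4F1 shRNA libraries. The groups overlapped, and at this depth the 95% interval of its log2 fold change ran from −1.02 to 0.62.

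The miR-29 family are small RNAs known to repress many collagen and matrix transcripts through sites in their 3′ untranslated regions (UTRs), and their heptamer was looked up here after the members' values were seen. The 3 mature forms, from RefSeq on GRCh38.p14, are shown because their shared seed (bases 2 to 8, in capitals) pairs with the heptamer TGGTGCT.
miR-29a-3p: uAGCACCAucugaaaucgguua
miR-29b-3p: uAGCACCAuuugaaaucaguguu
miR-29c-3p: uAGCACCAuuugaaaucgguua
TGGTGCT, searched on the transcript strand in the annotated 3′ UTR of the principal coding transcript (GENCODE 29), was present in 19 of the 39 members tested (48.7%), against 14.6% of the 12917 genes tested that have such a UTR. The median UTR length was 1101 bases in the members and 1045 bases in all these genes. Of the 17 collagen genes 13 held it, with 4 sites in COL5A1, and the other holders were FBN1, LAMC1, LOX, LOXL2, MMP2 and SPARC. Sites are given with the heptamer in capitals for 6 of the 7 holders that passed the test, and for COL1A2, the partner of COL1A1. Both COL3A1 sites and the first COL5A1 site are shown. A link between the site of COL1A2 and its low level was not tested. The site of LOXL2, which rose, is named only.
COL1A1, chr17:50184563-50184589, minus strand: agggaatcacTGGTGCTatagaaattg
COL1A2, chr7:94430903-94430929, plus strand: agaatgttgaTGGTGCTagaagaattt
COL3A1, chr2:189012006-189012032, plus strand: aatgtctcaaTGGTGCTataataaata
COL3A1, chr2:189012446-189012472, plus strand: acgcatgttaTGGTGCTaatgtacttt
COL5A1, chr9:134843332-134843358, plus strand: caatgaaaatTGGTGCTtattttttac
COL6A2, chr21:46132592-46132618, plus strand: accccgtccaTGGTGCTaagcgggccc
COL8A1, chr3:99798750-99798776, plus strand: cattctacaaTGGTGCTaatctcagac
MMP2, chr16:55505731-55505757, plus strand: tgggctgcccTGGTGCTgccacacttc
Of the 19 with it 2 rose and 5 fell, with a median log2 fold change of −0.09, and of the 20 without it 1 rose and 4 fell, with a median of −0.03. Over all genes the medians were 0.01 with it and 0.00 without it. A match of letters does not show that a site is used.

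A second heptamer, CTTATCT, was picked from earlier results of these same libraries, so its values here are a description. Of 1229 such genes tested 501 rose and 92 fell, with a median log2 fold change of 0.17, against −0.02 for genes without it. It was present in 3 of the 39 members (7.69%), against 9.51% of all genes with a UTR, and COL12A1 held it at both of the places below.
COL12A1, chr6:75085476-75085502, minus strand: gacattgtaaCTTATCTatttatagtt
COL12A1, chr6:75084713-75084739, minus strand: attgcaattaCTTATCTtcctcttcta
FBN1, chr15:48410431-48410457, minus strand: agttcagtagCTTATCTcagttatgag
LAMA4, chr6:112108781-112108807, minus strand: tttccccttcCTTATCTccttaaaaga
Of these 3 genes COL12A1 rose (log2 0.32), FBN1 had 0.19 (SE 0.07, edgeR adjusted p = 0.0622) and LAMA4, at 13 to 24 reads per library, had −0.27 (SE 0.32). COL8A1 and LOXL2, the other members that rose, held no CTTATCT in the UTR searched.

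Of the 6 fibrillar collagens, which assemble into the banded fibres of bone, tendon and skin, 3 fell, none rose and 3 did not pass. COL3A1, the type III collagen gene (chromosome 2, 188974320 to 189012746, plus strand), had 51.5, 57.8 and 44.2 CPM in the control libraries and 35.6, 37.7 and 43.3 CPM in the E4F1 shRNA libraries. All E4F1 shRNA values lay below all control values, but E4F1 shRNA library 3 came close to control library 3. The mean went from 51.2 ± 6.82 to 38.9 ± 3.99 CPM (SD, n = 3 each), log2 fold change −0.40 with SE 0.09 (adjusted p = 0.00361 in edgeR). COL5A1, whose type V chain helps start fibrils (chromosome 9, 134641774 to 134844843, plus strand), had 208, 206 and 212 CPM in control and 162, 171 and 190 CPM in E4F1 shRNA libraries. The controls were tight (SD 3.24 CPM) and the log2 fold change was −0.26 with SE 0.06 (adjusted p = 0.00359 in edgeR). COL1A1 had 1172, 1284 and 1172 CPM in control and 1042, 1088 and 1125 CPM in E4F1 shRNA libraries. The groups lay apart by a small margin, with log2 −0.16 (SE 0.06, edgeR adjusted p = 0.0422). COL5A2 (log2 −0.10), a partner of COL5A1, and COL11A1 (log2 −0.09), whose type XI chain is found in cartilage fibrils, did not pass and overlapped between groups. COL5A2 lies 19.1 kb from COL3A1, in the opposite orientation.

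Collagen VI, a beaded microfibril around cells, had 2 of its 3 chains fall. COL6A2 (chromosome 21, 46098097 to 46132849, plus strand) had 171, 171 and 184 CPM in control and 138, 146 and 148 CPM in E4F1 shRNA libraries, log2 fold change −0.29 with SE 0.05 (adjusted p = 0.000791 in edgeR). COL6A1, its neighbour 93.0 kb away on the same strand (chromosome 21, 45981737 to 46005050), had 145, 148 and 157 CPM in controls and 131, 119 and 127 CPM after E4F1 shRNA (log2 −0.26, SE 0.06, adjusted p = 0.00246 in edgeR). For both genes every E4F1 shRNA library was below every control library. COL6A3, which lies on chromosome 2, had log2 −0.15 (SE 0.06, edgeR adjusted p = 0.0641), with E4F1 shRNA library 2 (237 CPM) above control library 2 (234 CPM).

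COL1A1, COL5A1, COL6A1 and COL6A2 did not pass once the GC content of transcripts was allowed for. Their longest transcripts had 60.3% to 66.4% GC, against a median of 47.9% over all genes tested. Over all genes the log2 fold change fell with GC content, from a median of 0.14 in the tenth with the lowest GC to −0.18 in the tenth with the highest, where 1.97% rose and 27.2% fell. With an offset for GC content in each library, the log2 fold changes were −0.01 for COL1A1, −0.12 for COL5A1, −0.09 for COL6A1 and −0.10 for COL6A2, and none of the 4 passed (edgeR adjusted p = 0.876, 0.0902, 0.272 and 0.189). COL3A1 (52.1% GC) kept its call with the offset, at −0.35 (edgeR adjusted p = 0.0104), and was then the only fibrillar collagen to pass. The offset also added COL16A1, FBLN1 and SERPINH1 as higher, for 6 members up and 5 down. With the offset 1977 of all 15765 genes tested rose and 1926 fell. COL1A1 also failed the test when control library 1, control library 2, E4F1 shRNA library 1 or E4F1 shRNA library 2 was left out (edgeR adjusted p = 0.0832, 0.183, 0.194 and 0.12).

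**Figure D3:**
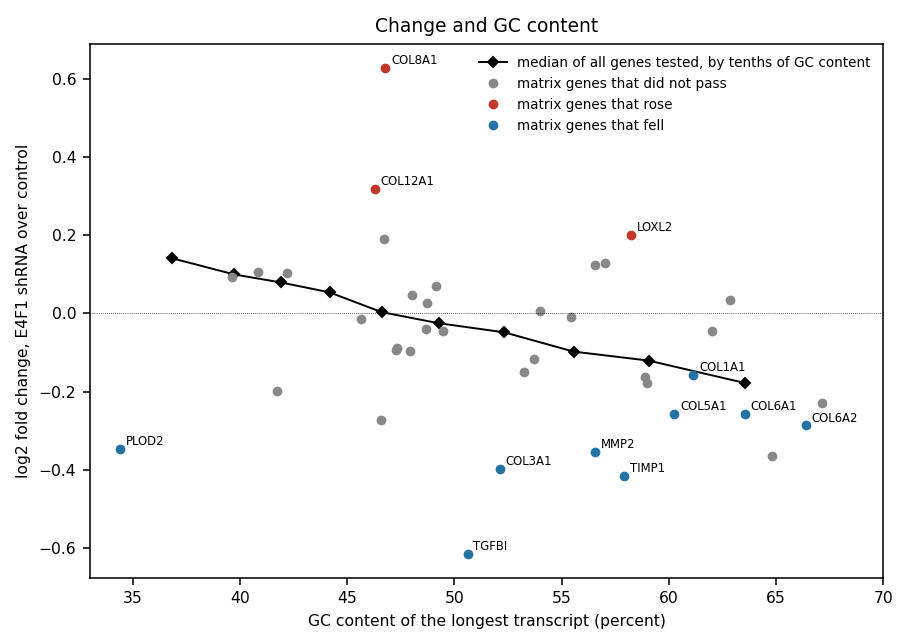
Log2 fold change of the 39 matrix genes tested against the GC content of the longest transcript, with the median of all genes tested in 10 groups of GC content (black diamonds). The black line falls from 0.14 to −0.18, COL1A1, COL5A1, COL6A1 and COL6A2 lie at its GC-rich end, and PLOD2 (34.4% GC) and COL8A1 (46.8% GC) lie far from it.

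Of the sheet-forming and basement membrane collagens COL8A1 rose and the other 3 did not pass. COL8A1 (chromosome 3, 99638475 to 99799226, plus strand) encodes a short-chain collagen of hexagonal networks found beneath endothelia. It had 54.4, 61.5 and 48.4 CPM in the control libraries and 88.3, 81.7 and 83.9 CPM in the E4F1 shRNA libraries. The groups lay far apart relative to their spread, with 54.8 ± 6.55 and 84.6 ± 3.40 CPM (SD, n = 3 each), log2 fold change 0.63 with SE 0.07 (adjusted p = 1.1e-05 in edgeR). COL4A1 and COL4A2, which lie head to head on chromosome 13 and encode the main chains of basement membrane collagen, were both abundant and close to their control level. COL4A1 had 463 ± 31.8 CPM in control and 460 ± 15.2 CPM in E4F1 shRNA cells, with a 95% interval of the log2 fold change from −0.12 to 0.10. COL4A2 had 738, 700 and 755 CPM in controls and 696, 701 and 729 CPM after E4F1 shRNA, which overlapped, and that interval ran from −0.15 to 0.06. COL18A1, the source of endostatin, had 12.3 ± 0.572 and 10.5 ± 1.28 CPM and did not pass (edgeR adjusted p = 0.137).

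COL12A1 was the other collagen that rose. It encodes a fibril-associated collagen that bridges fibrils to the surrounding matrix (chromosome 6, 75084326 to 75206051, minus strand). Its values were 658, 600 and 530 CPM in control and 717, 684 and 826 CPM in E4F1 shRNA libraries. Both groups spread widely, the closest pair being control library 1 and E4F1 shRNA library 2, and the log2 fold change was 0.32 with SE 0.08 (adjusted p = 0.00481 in edgeR). COL16A1, another fibril-associated collagen, had 99.0 ± 9.07 and 101 ± 3.34 CPM, and passed as higher with the GC offset (log2 0.19, adjusted p = 0.0334 in edgeR). COL7A1, which forms the anchoring fibrils of skin, had 11.1 ± 1.75 and 8.62 ± 1.24 CPM (log2 −0.36, edgeR adjusted p = 0.0532), and the transmembrane collagen gene COL13A1 17.3 ± 2.99 and 15.3 ± 1.17 CPM. Under the 17 alternatives COL7A1 passed as lower in 5, and COL13A1 in 1, without control library 2.

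Among adhesive and matricellular glycoproteins TGFBI fell and no other passed. TGFBI, which encodes a TGF-beta-induced protein that binds collagen and integrins (chromosome 5, 136028895 to 136063818, plus strand), had 89.1, 80.7 and 98.1 CPM in the control libraries and 59.1, 60.1 and 55.7 CPM in the E4F1 shRNA libraries. The E4F1 shRNA libraries were alike and all far below control, with log2 fold change −0.61 with SE 0.07 (adjusted p = 6.82e-06 in edgeR). The abundant glycoproteins stayed within narrow bounds. TNC, which encodes tenascin C, had 302 ± 1.58 CPM in control and 303 ± 6.81 CPM in E4F1 shRNA cells, with a 95% interval of the log2 fold change from −0.09 to 0.10. THBS1, the thrombospondin 1 gene, had 628 ± 26.1 and 621 ± 33.9 CPM, with an interval from −0.12 to 0.09. FN1, the fibronectin gene, had 981, 961 and 915 CPM in control and 1082, 1012 and 976 CPM in E4F1 shRNA libraries, which overlapped (log2 0.10, edgeR adjusted p = 0.172). SPARC had 1285, 1247 and 1270 CPM in controls and 1188, 1173 and 1202 CPM after E4F1 shRNA. All E4F1 shRNA values were lower, yet by only −0.09 on the log2 scale, and it did not pass (edgeR adjusted p = 0.173).

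None of the 3 microfibril genes and none of the 3 laminin chain genes passed in edgeR, where 2 of the former (FBN1 and FBLN1) and 0 of the latter had an unadjusted p under 0.05. DESeq2 and limma-voom called none of them either. FBLN1 did pass as higher with the GC offset (log2 0.23, adjusted p = 0.00593 in edgeR) and without control library 2 (0.18, adjusted p = 0.0204). FBN1, the fibrillin 1 gene, had 53.3 ± 5.36 and 60.8 ± 3.67 CPM. It passed as higher without a low-count filter, with the replicate block and without control library 1 (adjusted p = 0.0353, 0.0317 and 0.0145 in edgeR). FBN2, its paralogue, had 379, 333 and 307 CPM in controls and 336, 332 and 384 CPM after E4F1 shRNA, which overlapped. FBLN1, which encodes the elastic fibre protein fibulin 1, had 70.3 ± 3.74 and 76.9 ± 0.694 CPM with all E4F1 shRNA libraries above control (log2 0.13, edgeR adjusted p = 0.112). LAMC1 had 443, 411 and 455 CPM in controls and 428, 415 and 430 CPM after E4F1 shRNA, within the control range. LAMB1 and LAMC1, the beta and gamma chains shared by many laminins, had log2 fold changes of −0.04 each, with 95% intervals from −0.15 to 0.06 and from −0.14 to 0.06.

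The collagen-modifying enzymes went in different directions. PLOD2, the lysyl hydroxylase that acts on collagen telopeptides and so sets the type of crosslink, fell (chromosome 3, 146069440 to 146163653, minus strand). It had 319, 284 and 339 CPM in the control libraries and 252, 246 and 242 CPM in the E4F1 shRNA libraries, log2 fold change −0.35 with SE 0.06 (adjusted p = 0.00045 in edgeR). All 3 E4F1 shRNA libraries were below the lowest control, library 2, and the log2 fold change was −0.51 with the GC offset. LOXL2, a lysyl oxidase-like crosslinking enzyme gene on chromosome 8, rose from 112, 126 and 118 CPM to 137, 133 and 139 CPM (log2 0.20, SE 0.06, edgeR adjusted p = 0.0132), and did not pass without control library 1 (adjusted p = 0.0618). Its annotated exons share 2.1% of their bases with those of ENTPD4 on the same strand. Larger overlaps of this kind held 3.53% of the exon bases of MMP2 (with AC007336.3) and 3.52% of those of TIMP2 (with CEP295NL). The chaperone gene SERPINH1 had 367, 396 and 372 CPM in controls and 411, 414 and 410 CPM after E4F1 shRNA, with groups apart (log2 0.12, edgeR adjusted p = 0.0783). It passed with the GC offset (log2 0.22, adjusted p = 0.00284 in edgeR) and without control library 2 (0.17, adjusted p = 0.019). The prolyl hydroxylase genes P4HA1 (log2 0.10) and P4HA2 (log2 0.07) and the lysyl oxidase gene LOX (log2 0.09) did not pass.

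Of the proteases and inhibitors MMP2 and TIMP1 fell. TIMP1, a secreted inhibitor of metalloproteinases (chromosome X, 47582313 to 47586789, plus strand), had 297, 282 and 349 CPM in the control libraries and 236, 233 and 226 CPM in the E4F1 shRNA libraries. Control library 3 was the highest and the E4F1 shRNA libraries were tight, with log2 fold change −0.42 with SE 0.07 (adjusted p = 0.000202 in edgeR). MMP2, which encodes the gelatinase A protease (chromosome 16, 55389700 to 55506691, plus strand), had 211, 193 and 226 CPM in control and 159, 162 and 172 CPM in E4F1 shRNA libraries (log2 −0.35, SE 0.06, edgeR adjusted p = 0.00036). MMP14, the membrane protease that activates pro-MMP2, and TIMP2, which takes part in that activation, had log2 −0.16 and −0.12 (edgeR adjusted p = 0.0838 and 0.0992). TIMP3, an inhibitor that binds the matrix, had log2 0.03, with a 95% interval from −0.08 to 0.14.

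**Figure D4:**
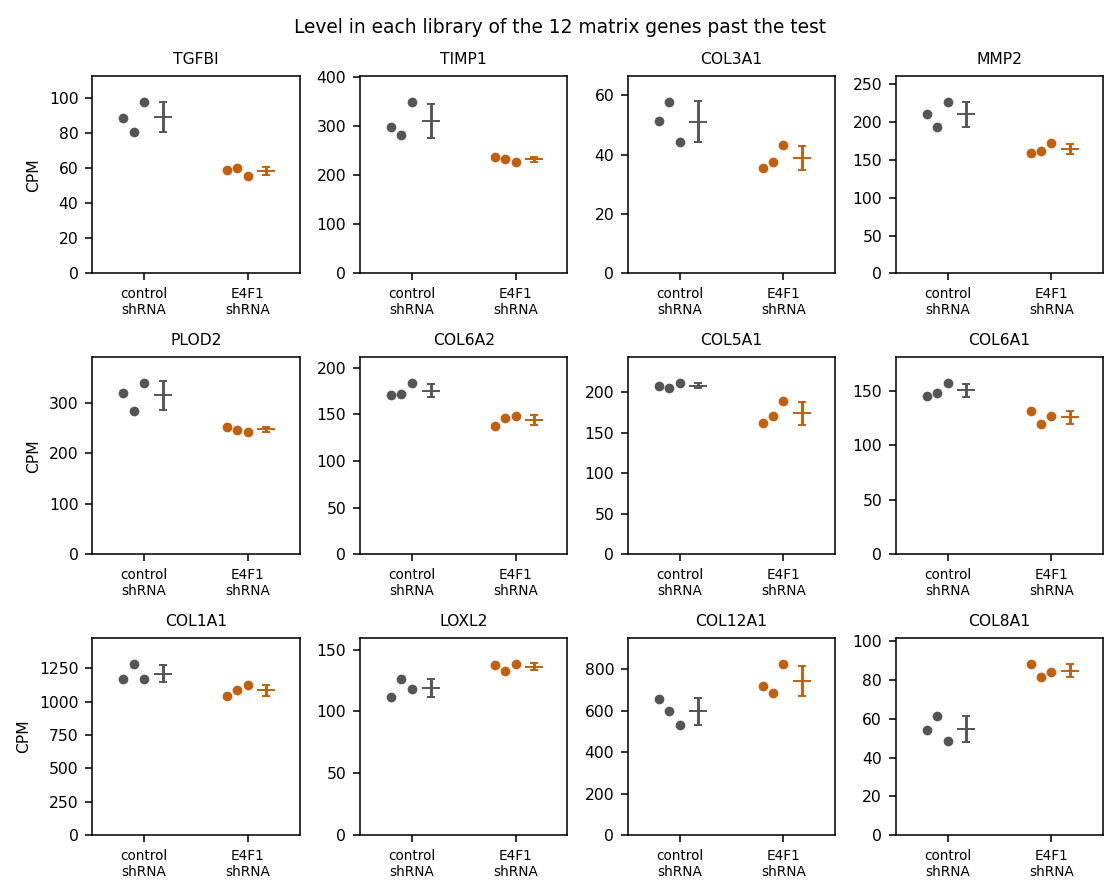
CPM in each of the 3 control and 3 E4F1 shRNA libraries for the 12 matrix genes past the test, with mean and SD beside the points; each axis starts at 0. In all 12 panels the groups do not overlap, with the closest approach in COL3A1 (43.3 against 44.2 CPM).

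The cell cycle score moved with the groups and its part in these changes was not tested. When the score of each library entered the fit as a covariate, 494 of all 15765 genes tested rose and 344 fell, against 2274 and 2276 without it. Of the members only COL8A1 (log2 0.38), COL3A1 (−0.59) and TGFBI (−0.43) passed with it (edgeR adjusted p = 0.0133, 0.00265 and 0.00525). Of those that did not, COL1A1 was farther from 0 than before (−0.23 against −0.16) and COL12A1 nearly as far (0.31 against 0.32). Their adjusted p was 0.0865 and 0.0996 in edgeR. The values of COL5A1, COL6A1, COL6A2, PLOD2, MMP2, TIMP1 and LOXL2 were nearer 0, at −0.16, −0.20, −0.20, −0.16, −0.15, −0.21 and 0.13. COL8A1, COL3A1 and TGFBI were the members that passed under every alternative tried. Without control library 2, the control nearest the E4F1 shRNA libraries, 5 members rose and 12 fell. Among them were 11 of the 12 above, all but COL1A1. Over all genes 2833 rose and 2537 fell in that fit, against 2274 and 2276 in the main fit, which tested fewer genes.

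Other genes of matrix biology, in 7 lists of 219 genes together, gave 179 tested, of which 30 rose and 60 fell (50.3%), against 28.9% of all genes. When the cell cycle score entered the fit these numbers were 12 and 14, against 494 and 344 of all 15765 genes tested. By list 0 to 3 genes rose and 0 to 4 fell in that fit, with 0 up and 0 down among other collagen chains. COL17A1, FAP and LRRC32 did not pass. The lists were chosen with earlier results of these data known, so their share is a description. Among all genes with an average log2 CPM of at least 5 the share was 40.1%, and the lists were not matched to other genes by level. No test of a list against other genes was made.

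Among other collagen chains 1 of 17 tested rose and 4 fell, with a median log2 fold change of −0.40. COL17A1, a transmembrane collagen of hemidesmosomes, went from 36.2 ± 8.71 to 21.2 ± 1.38 CPM (log2 −0.77), COL5A3 had −0.75 and COL27A1 −0.40, while the basement membrane gene COL4A4 rose (0.44). Without E4F1 shRNA library 3 no gene of this list rose. Of 28 genes for procollagen folding, export and processing 2 rose and 11 fell. COLGALT1, which adds galactose to hydroxylysine, went from 177 ± 1.92 to 144 ± 2.81 CPM (log2 −0.30). P3H3, of the prolyl 3-hydroxylase family, had −0.51, CREB3L1, a transcription factor that drives collagen genes in osteoblasts, −0.54, and BMP1, which removes the procollagen C-propeptide, −0.39. With the GC offset 4 of this list rose and 7 fell, and without control library 2 it was 4 that rose.

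Basement membrane genes outside the 41 changed in both directions, with 4 of 16 up and 7 down, or 2 down with the GC offset, 4 down without E4F1 shRNA library 1 and 2 down without E4F1 shRNA library 2. LAMA3, a laminin alpha chain of epithelia, rose from 2.16 ± 0.079 to 7.17 ± 0.604 CPM (log2 1.72, SE 0.16), NID1, which encodes the laminin linker nidogen 1, from 62.4 ± 3.92 to 101 ± 0.260 CPM (log2 0.69), and FRAS1 rose by 0.44, while LAMB2 had −0.50. Among 24 integrins and other receptors 7 rose and 6 fell. DDR2, a receptor kinase for fibrillar collagen, had 65.8 ± 10.5 CPM in control and 107 ± 0.333 CPM in E4F1 shRNA cells (log2 0.71). Of 4 syndecan genes, which encode heparan sulfate carriers at the cell surface, SDC2 rose (0.65), SDC3 (−0.48) and SDC4 (−0.47) fell, and SDC1 had −0.08 (adjusted p = 0.299 in edgeR).

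Of 31 other proteases and inhibitors 4 rose and 14 fell, with a median of −0.21, and 9, 8 and 8 fell without control library 1, control library 3 and E4F1 shRNA library 2. FAP, the fibroblast activation protein gene, went from 16.5 ± 3.80 to 8.07 ± 0.956 CPM (log2 −1.03), and MMP9, the gelatinase B gene, from 19.4 ± 2.13 to 10.9 ± 0.716 CPM (log2 −0.82). ADAM12 had −0.49 and ADAMTS12 −0.28. Of 38 other glycoproteins, proteoglycans and elastic fibre genes 8 rose and 10 fell, or 6 fell without control library 1, without E4F1 shRNA library 2 and with the GC offset. Named members were the hyaluronan synthase gene HAS2 at 0.78, the glypican gene GPC4 at 0.63, SRPX2 at −0.55 and EFEMP2, which encodes fibulin 4, at −0.52. Of 26 TGF-beta ligands, receptors and signalling genes 5 rose and 8 fell. The receptor genes moved in opposite directions: TGFBR1 rose from 54.0 ± 2.07 to 74.7 ± 1.94 CPM (log2 0.47), and TGFBR2 fell from 149 ± 10.8 to 109 ± 3.00 CPM (log2 −0.45). ID1 had −0.41, and LRRC32, which tethers latent TGF-beta, −1.48 from a level of 2.44 ± 0.0826 CPM. Of the genes named from these lists 8 of the 9 that rose had a 3′ UTR to search (none was found for LAMA3), and CTTATCT stood in those of GPC4, NID1 and TGFBR1. Among the 19 that fell it stood in that of TGFBR2. The heptamer and these named genes were both picked from results of these same libraries, so the contrast is a description only. Of all genes tested with a UTR 9.51% held CTTATCT.

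**Figure D5:**
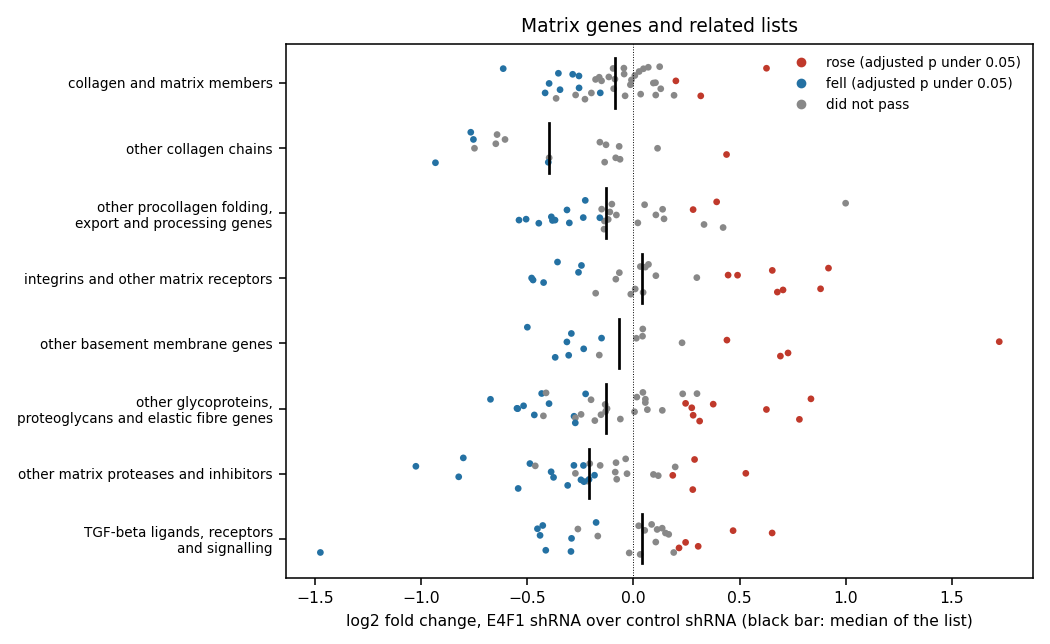
Log2 fold change of each gene tested in the 41-gene list (top row) and in 7 related lists, with the list's median as a black bar and calls at an adjusted p under 0.05 in colour. The 41-gene list lies between −0.61 and 0.63, and LAMA3 (1.72) and LRRC32 (−1.48) lie farthest out in the related lists.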

How the data were processed

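The members and gene lists were chosen with earlier results of these data known. The files deposited by the authors hold raw read counts for each gene, by strand. Their processing notes, per the submitters, list bcl2fastq 2.20, STAR 2.5.1b and GRCh38; no source used here gives the annotation release. The column for the reverse strand was used, since the forward column held 885046 to 977742 reads in genes per library against 14947085 to 16892139 in the reverse column. Lines that name no gene (27.1% to 31.7% of each table) stayed out. Names, exon lengths, UTRs and GC content came from GENCODE 29, which matched 57881 of 58219 identifiers without the version number.

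Counts were tested with edgeR 4.0.16 (filterByExpr, TMM scaling, quasi-likelihood F-test, group as the only term, two-sided), with Benjamini-Hochberg adjustment over all 15765 genes. CPM values are TMM-scaled, given as mean ± SD (n = 3). The SE is the log2 fold change over the square root of F. The 95% intervals are 1.96 SE either side, so they are approximate and narrower than the F-test would give. That of COL18A1 ran from −0.448 to −0.0097, leaving out 0, at an unadjusted p = 0.0562 in edgeR. P-values measure the spread between 3 pools; 3 against 3 allows no exact permutation p below 0.1. All 41 members are accounted for, and up to 4 genes per related list with the smallest adjusted p are named. Alternatives were DESeq2 1.42.0, limma-voom (limma 3.58.1), other scalings and filters, a replicate block, a GC offset, unstranded counts, a cell cycle covariate and leaving out each library. Both heptamers, the trend with GC content and the background at higher levels were examined with results in view and carry no test. Only the main edgeR fit was tried on simulated counts, with few genes changed and no GC trend or cell cycle difference. The alternatives were not simulated.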

Additional observations from a re-analysis of the deposited data

How the results depend on the processing

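Of 204 values (12 members that passed, under 17 alternatives each) 182 kept direction and call, 22 lost the call and none turned. Of 457 values of the 27 members that did not pass, 20 gained a call and 30 turned in sign. The gains were in COL6A3, COL7A1, COL13A1, COL16A1, FBN1, FBLN1, SERPINH1 and MMP14. The matrix members that rose numbered 6 with the GC-content offset, 6 with that offset and the replicate block, 1 with the cell cycle covariate and 3 to 5 without 1 library; those that fell numbered 5, 5, 2 and 8 to 12. Their median log2 fold change was −0.032, −0.035, 0.00085 and −0.096 to −0.033 in the same order. Over all genes 1977 rose and 1926 fell with the GC-content offset, and 2055 and 2014 with that offset and the replicate block. With the cell cycle covariate 494 genes rose and 344 fell, and without 1 library 1605 to 2833 rose and 1419 to 2537 fell (1503 without control library 3, 1419 and 1426 without E4F1 shRNA libraries 1 and 2); the related lists gave 12 up and 14 down, and 27 to 34 up and 40 to 63 down. With the longest transcript as length the median control level was 29.7 RPKM. The cause of these shifts was not tested.

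Signs turned only in members that did not pass. With the cell cycle covariate COL11A1 had 0.066, COL4A1 0.17, COL4A2 0.059, COL7A1 0.084, COL13A1 0.23, LAMB1 0.083, LAMC1 0.084, MMP14 0.072, COL16A1 −0.12 and TIMP3 −0.062. With the GC offset, alone and with the block, COL4A1 had 0.079 and 0.081, COL4A2 0.10 and 0.11, and LOX −0.014 and −0.014. Without a low-count filter COL4A1 had 0.0024. Leaving out 1 library gave −0.57 to 0.22 for COL1A2, −0.053 to 0.034 for COL4A1, −0.014 to 0.12 for COL16A1, −0.049 to 0.034 for THBS1, −0.00098 to 0.029 for TNC, −0.022 to 0.15 for FBN2 and −0.53 to 0.0097 for LAMA4.

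With the replicate block 4 members rose and 11 fell, the 12 members above with FBN1, COL7A1 and MMP14. In that fit 2419 of all 15765 genes tested rose and 2446 fell, against 2274 and 2276 in the main fit. Deviations of same-numbered libraries correlated at 0.007, 0.0471 and 0.0477, and those of differently numbered libraries at −0.108 to 0.077. The main fit did not take the numbers as pairs, and these values do not show whether the pools were paired.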

Other observations

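The host transcript of the miR-29b-2 and miR-29c precursors, MIR29B2CHG, had 5 to 13 reads in the control and 9 to 15 in the E4F1 shRNA libraries (log2 0.39, SE 0.41, edgeR adjusted p = 0.513), and the precursor genes MIR29A, MIR29B1, MIR29B2 and MIR29C held at most 1 read per library. Poly(A) libraries do not measure mature miRNAs, so the level of miR-29 in these cells is not given by these data.

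LUM, which encodes the small proteoglycan lumican, averaged 32.3 CPM in control and 22.1 CPM in E4F1 shRNA libraries, whereas its relative DCN stayed at 0.19 and 0.22 CPM.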
